A study of Mus musculus with 15 samples.

Results

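This report covers 9 genes that mark the medium spiny neurons (MSN) of the striatum, namely Ppp1r1b, Rasd2, Tac1, Gpr6, Bcl11b, Foxp1, Foxp2, Ebf1 and Sp9. They were chosen by symbol, as 9 of the 26628 genes in the expression table, and all 9 were among the 15213 genes that passed the filter on low values and were tested. RNA was profiled in whole cerebellum (Ce) and whole striatum (St) of male Hsd:ICR mice, of a line bred for high voluntary running (Hi) or of a control line (Co). The groups were CeCo (4 samples), CeHi (4 samples), StCo (4 samples) and StHi (3 samples, after the authors had removed 1). By the sample labels, mice of both lines were about 6 weeks of age when they were given a running wheel. The paper gives a younger age at that point. Tissue was taken after 7 days, so every group, controls included, had wheel access. Each line is a single bred line, so the effect of selection and other differences between these lines cannot be told apart.

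MSN are the GABAergic projection neurons that make up most of the striatum and receive its dopamine and cortical input. They fall into a direct pathway class, which carries the dopamine D1 receptor and makes substance P and dynorphin, and an indirect pathway class, which carries the dopamine D2 receptor and an adenosine receptor and makes enkephalin. Among the 9 genes, Ppp1r1b, Rasd2, Tac1 and Gpr6 serve signalling, and Bcl11b, Foxp1, Foxp2, Ebf1 and Sp9 encode transcription factors. Tac1 and Ebf1 are known from the direct pathway class and Gpr6 and Sp9 from the indirect one.

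The promoters of Gpr6 and Sp9 are shown because both genes belong to the indirect pathway class and were near the limit of detection in the Ce and well expressed in the St. Each run is the 250 bases before the annotated start, from RefSeq on build GRCm38.p6, written 5′ to 3′ on the strand of the gene, and capitals mark matches to searched motifs. The Gpr6 window lies at chr10:41072291-41072540 on the minus strand and the Sp9 window at chr2:73271676-73271925 on the plus strand.
Gpr6: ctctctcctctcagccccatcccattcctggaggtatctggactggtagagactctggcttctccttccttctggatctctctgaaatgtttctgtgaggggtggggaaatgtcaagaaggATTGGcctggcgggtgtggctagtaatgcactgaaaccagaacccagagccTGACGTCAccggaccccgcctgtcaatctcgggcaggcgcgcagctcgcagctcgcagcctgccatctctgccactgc
Sp9: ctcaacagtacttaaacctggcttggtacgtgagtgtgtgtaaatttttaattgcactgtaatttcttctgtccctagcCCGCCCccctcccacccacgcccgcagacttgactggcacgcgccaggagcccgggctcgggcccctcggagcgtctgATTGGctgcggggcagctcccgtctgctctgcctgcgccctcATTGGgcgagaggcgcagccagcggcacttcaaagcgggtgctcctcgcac

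In the Gpr6 window the capitals are a CCAAT box (written ATTGG on this strand) at 129 to 125 bases before the start and a cAMP response element, TGACGTCA, at 78 to 71 bases before it. In the Sp9 window they are a GC box (written CCGCCC on this strand) at 171 to 166 bases before the start and CCAAT boxes at 93 to 89 and at 51 to 47 bases before it. Both strands were searched. TGACGTCA was found in 1.55% of all 32851 promoter windows of this length, CCAAT in 33.8% and GGGCGG in 32.7%. The Gpr6 window had 9 CpG and a GC content of 58.4%, and the Sp9 window 18 CpG and 62.4%, beside medians of 6 CpG and 52.4% over all windows. Windows were found for 7 of the 9 genes (10 windows in all), and none of these held TATAAA, the forkhead motif TGTTTAC or the palindromic EBF motif, which occurred in 12.4%, 3.17% and 0.779% of all windows. These matches describe letters and were not tested as sites.

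Totals were 38499264 to 43669012 normalized fragment counts per sample, which correspond to 32909395 to 47486319 fragments. The values are divided by library size and not by gene length, and 1 fragment equals 0.841 to 1.30 normalized counts. The 4 defining markers of Purkinje and granule cells (Pcp2, Ppp1r17, Gabra6 and Barhl1) summed to 67350 to 80029 normalized counts in Ce samples and to 42.0 to 56.3 in St samples. Choroid plexus markers ranged from 942 to 115133 in Ce samples and from 1251 to 17849 in St samples, and their part in the results below was not tested. One sample stood apart in the genes described here. CeHi replicate 3 was the highest of the 8 Ce samples for 6 of the 9 genes, so the values that it moves most are also given without it.

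The comparison of regions asks how strongly each gene marks the St in these mice. Of the 9 genes, 8 were higher in the St and 1, Ebf1, was lower, in the mean over lines and in each line. Over all genes tested 80.2% differed between regions (39.6% higher and 40.6% lower in the St), so passing this test is common and the size of the differences is the more informative value. In the Co mice alone 74.7% of the tested genes differed, and in the Hi mice alone 70.5%. All 8 genes that were higher in the St exceeded a log2 fold change of 3 in the mean over lines, a size reached by 3.97% of the tested genes, and Gpr6, Sp9, Tac1 and Bcl11b exceeded 7, reached by 0.421%. The tissues are mixtures, so fewer cells of a type and less RNA per cell cannot be told apart in any of these values.

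**Figure D1:**
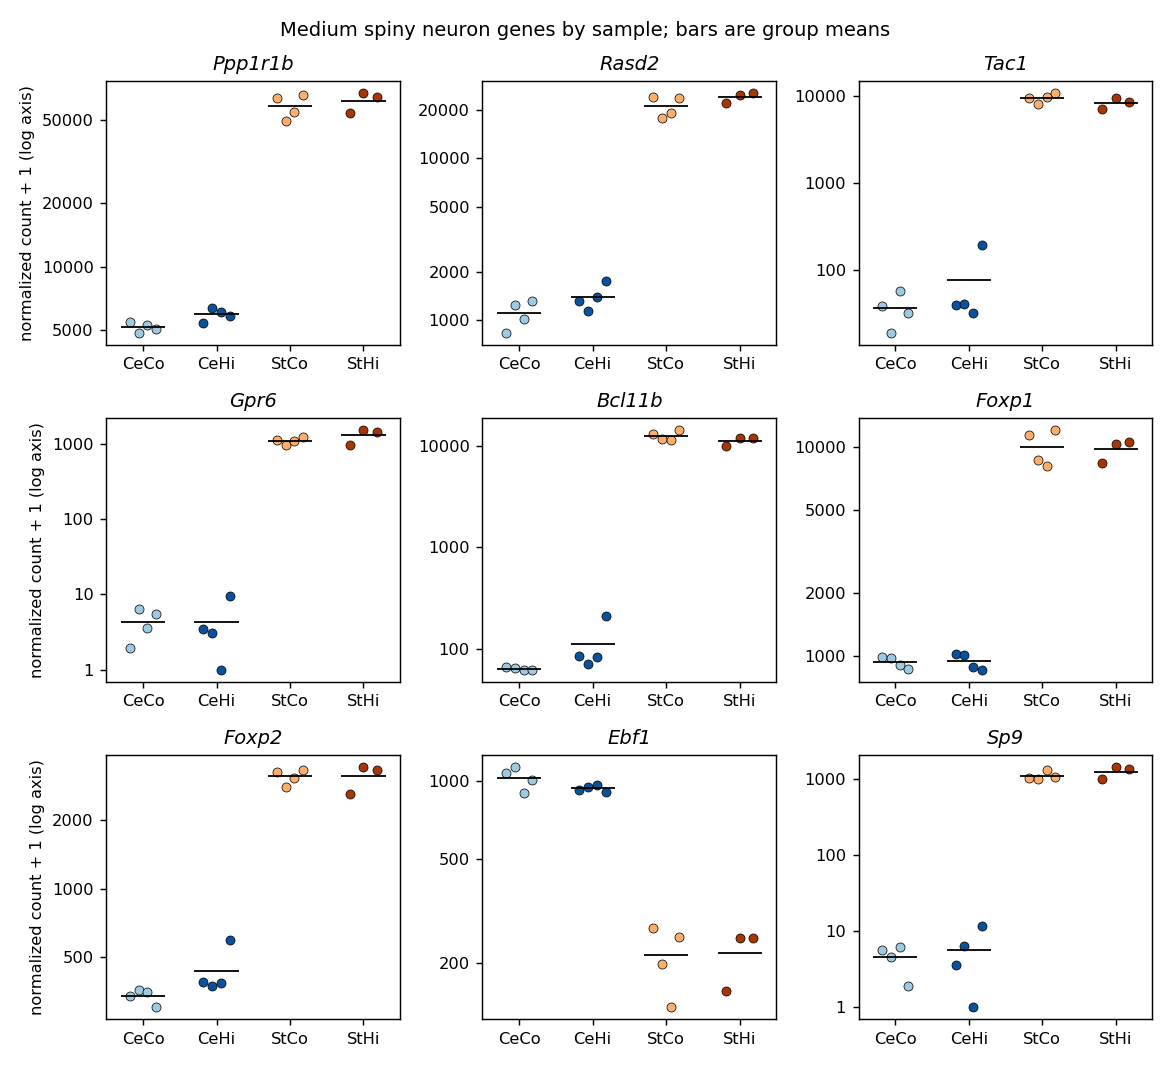
Normalized fragment counts plus 1 of the 9 genes in each sample, on log axes that differ between panels, with the group mean as a bar. In 8 panels all St samples lie above all Ce samples, and in the Ebf1 panel all St samples lie below them.

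Ppp1r1b encodes DARPP-32, the phosphatase inhibitor through which dopamine and cAMP act in MSN. Its 4 CeCo samples had 5458, 4872, 5326 and 5056 normalized counts, and its 4 CeHi samples 5424, 6402, 6114 and 5868. In the St it had 62988, 49398, 54274 and 65686 normalized counts in StCo and 53644, 66819 and 63803 in StHi. Every St sample was far above every Ce sample, while the lines overlapped in each region. The mean was 11.2 times as high in the St in Co mice and 10.3 times in Hi mice, with a log2 fold change of 3.43 (SE 0.066, adjusted p = 1.68e-17, limma) over both lines. The gene lies at chr11:98348404-98357796 on the plus strand, and 15.7% of its exonic bases overlap 1700003D09Rik on the opposite strand, from which its reads cannot be told apart because the strand of counting is not given in the sources used here.

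Rasd2 encodes Rhes, a small GTPase of the Ras family enriched in the St (chr8:75213944-75224113, plus strand). It had 837, 1236, 1017 and 1317 normalized counts in CeCo and 1318, 1136, 1391 and 1746 in CeHi. In StCo it had 23859, 17716, 18929 and 23513 and in StHi 22124, 24655 and 25331. The regions were separate and the lines overlapped in both regions. Its St mean was 19.1 times the Ce mean in Co mice and 17.2 times in Hi mice (log2 fold change 4.19, SE 0.11, adjusted p = 4.03e-14, limma).

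Tac1 encodes the precursor of substance P, a peptide of direct pathway MSN (chr6:7554879-7565834, plus strand). Its normalized counts were 37.3, 17.8, 56.3 and 30.3 in CeCo and 37.8, 39.0, 30.6 and 189 in CeHi. In StCo they were 9415, 7914, 9548 and 10725 and in StHi 7113, 9414 and 8450. The Ce was low in 7 of its 8 samples, and CeHi replicate 3 was several times higher than the rest. The St mean was 265 times the Ce mean in Co mice and 112 times in Hi mice, and the log2 fold change over both lines was 7.67 (SE 0.37, adjusted p = 5.65e-10, limma). The lower fold in Hi mice rests on CeHi replicate 3. Without it the CeHi mean was 35.8 normalized counts, the fold 232, and the log2 fold change in Hi mice 7.83, beside 8.12 in Co mice.

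Gpr6 encodes a receptor coupled to cAMP production that is found on indirect pathway MSN (chr10:41069977-41072285, minus strand). In the Ce it was close to the limit of detection, with 0.932, 5.35, 2.56 and 4.45 normalized counts in CeCo and 2.52, 2.11, 0 and 8.45 in CeHi, which are 0 to 8 fragments per sample. A count of 0 allows up to 3 fragments, for counting error only. In the St it had 1103, 947, 1083 and 1230 normalized counts in StCo and 961, 1508 and 1436 in StHi. The St mean was 328 times the Ce mean in Co mice and 398 times in Hi mice, with a log2 fold change of 8.38 (SE 0.38, adjusted p = 2.02e-11, limma). Without CeHi replicate 3 the CeHi mean was 1.54 normalized counts from 5 fragments in all, and the fold in Hi mice was 843, with an interval of 361 to 2596 for the counting error of those fragments. Because the Ce values are so low the fold depends on the added constant, and the log2 fold change was 9.16 with 0.1 added and 7.22 with 5 added.

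Bcl11b encodes the zinc finger factor CTIP2, which MSN need to mature (chr12:107910403-108003602, minus strand). Its normalized counts were 66.2, 63.3, 61.4 and 61.5 in CeCo and 84.9, 70.7, 82.4 and 208 in CeHi. In StCo they were 13055, 11481, 11249 and 14178 and in StHi 9892, 11758 and 11778. The CeCo samples lay within 5 normalized counts of each other, all 4 CeHi samples lay above them, and CeHi replicate 3 was again the highest. The St mean was 198 times the Ce mean in Co mice and 99.9 times in Hi mice (log2 fold change 7.19, SE 0.18, adjusted p = 1.03e-13, limma). Without CeHi replicate 3 the fold in Hi mice was 140.4.

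Sp9 encodes a zinc finger factor needed for indirect pathway MSN (chr2:73271925-73284706, plus strand, with 5.35% of its exonic bases overlapped by Cir1 on the opposite strand). Like Gpr6, it was near the limit of detection in the Ce, with 4.66, 3.57, 5.12 and 0.891 normalized counts in CeCo and 2.52, 5.27, 0 and 10.6 in CeHi. In StCo it had 1023, 991, 1322 and 1069 and in StHi 1003, 1428 and 1337. The St mean was 309 times the Ce mean in Co mice and 274 times in Hi mice (log2 fold change 8.16, SE 0.42, adjusted p = 1.54e-10, limma). Without CeHi replicate 3 the fold in Hi mice was 483, resting on 8 fragments in CeHi (interval 245 to 1119, counting error only). With 0.1 added before the logarithm the log2 fold change was 8.89, and with 5 added it was 7.09.

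The forkhead factors Foxp1 and Foxp2 had a sizeable level in the Ce, where Foxp2 is known from Purkinje cells. Foxp1 (chr6:98925338-99522721, minus strand) had 994, 979, 904 and 867 normalized counts in CeCo, 1021, 1014, 886 and 860 in CeHi, 11428, 8677, 8142 and 12097 in StCo, and 8462, 10364 and 10611 in StHi. Foxp2 (chr6:14901349-15441977, plus strand) had 335, 356, 350 and 299 normalized counts in CeCo, 385, 371, 383 and 594 in CeHi, 3284, 2817, 3067 and 3349 in StCo, and 2602, 3429 and 3339 in StHi. Their St means were 10.8 and 9.35 times the Ce means in Co mice and 10.4 and 7.21 times in Hi mice. The log2 fold changes were 3.40 for Foxp1 (SE 0.086, adjusted p = 3.1e-15) and 3.05 for Foxp2 (SE 0.097, adjusted p = 3.77e-14). The Foxp1 gene overlaps 4 other annotated genes on its own strand, which cover 3.16% of its exonic bases.

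Ebf1, a factor that directs the maturation of direct pathway MSN in development, went the other way (chr11:44617317-45008091, plus strand). It had 1066, 1122, 894 and 1005 normalized counts in CeCo and 919, 947, 964 and 907 in CeHi. In StCo it had 273, 198, 135 and 250 and in StHi 156, 249 and 248. Every Ce sample was above every St sample, and the lines overlapped in both regions. The Ce mean was 4.77 times the St mean in Co mice and 4.30 times in Hi mice, and the log2 fold change of St against Ce was -2.21 (SE 0.14, adjusted p = 3.35e-10, limma). Among the other members of its family, Ebf2 (-3.51, SE 0.20) and Ebf3 (-2.77, SE 0.28) were also lower in the St, and Ebf4 was higher (1.09, SE 0.12), each with an adjusted p that passed the threshold.

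**Figure D2:**
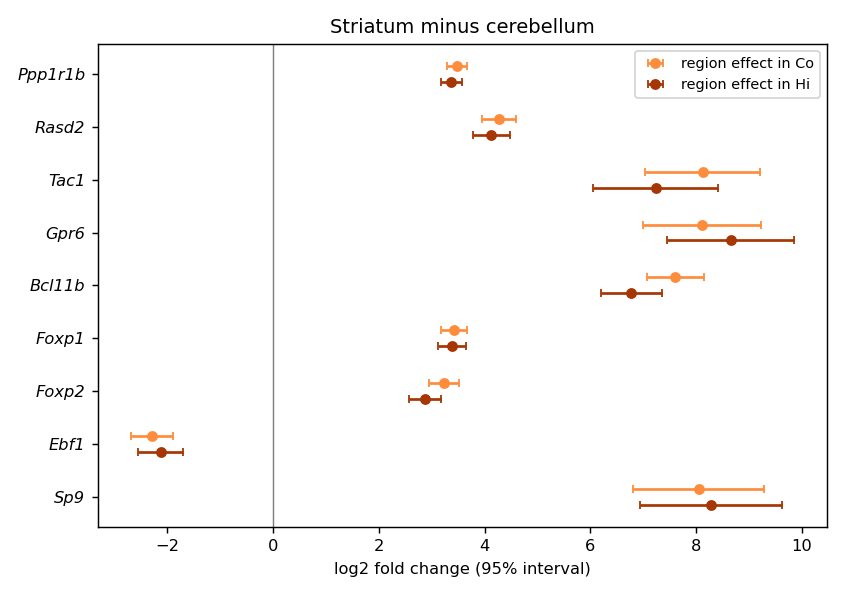
Log2 fold change of St against Ce with its 95% interval, in Co mice and in Hi mice. For 8 genes both intervals lie above 0, between 2.57 and 9.85, and for Ebf1 both lie below 0.

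Within the St the genes differed widely in level per kilobase of exonic sequence. In StCo the order was Ppp1r1b (19838 ± 2585 normalized counts per kilobase, SD, n = 4), Rasd2 (6613 ± 988), Tac1 (2766 ± 339), Bcl11b (1540 ± 170), Foxp1 (733 ± 143), Gpr6 (611 ± 65.1), Sp9 (218 ± 29.9), Foxp2 (191 ± 14.7) and Ebf1 (21.9 ± 6.27). Foxp1 and Gpr6 differed by less than the SD of Foxp1, and Sp9 and Foxp2 by less than the SD of Sp9, so the order within those pairs is not resolved. In StHi the order was the same but for Gpr6 (729 ± 166 per kilobase, SD, n = 3), which stood next to Foxp1 (714 ± 85.5) in reversed order. In CeCo the order per kilobase was different, with Ppp1r1b (1768 ± 90.1) and Rasd2 (347 ± 68.4) followed by Ebf1 (105 ± 10.01), Foxp1 (68.1 ± 4.40) and Foxp2 (20.48 ± 1.55). Ppp1r1b was thus the most abundant of the 9 genes per kilobase in both regions, and Ebf1 moved from the lowest place in the St to the third in the Ce.

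The wider MSN gene lists behaved like the 9 genes across regions. Of 12 genes of striatal dopamine and cAMP signalling all 12 were higher in the St (median log2 fold change 3.99, beside -0.01 over all genes tested), as were 7 of 7 indirect pathway genes (median 7.38). Of 7 direct pathway genes 6 were higher (median 7.67), and of 13 MSN transcription factors 12 were higher (median 6.19), with Ebf1 the exception in both lists. These lists hold the genes described here, and were chosen as known St genes, so they are not independent evidence. Of 11 paralogs, 8 were higher and 3 lower in the St, beside 39.6% and 40.6% of all genes tested. Bcl11a (log2 fold change 2.83), Sp8 (7.08), Ppp1r1a (2.39), Rasd1 (2.02), Tac2 (5.78), Gpr12 (1.59) and Gpr3 (0.73) had the direction of their relative among the 9 genes, as had Ebf2 and Ebf3. Foxp4 (-0.89) and Ebf4 (1.09) did not.

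For each gene the tested genes with the most similar profile were found by the root mean square difference of log2 values over 15 samples, each profile centred on its own mean. The closest were Wipf3 (0.082) and Plk2 (0.12) for Ppp1r1b, Prkch (0.17) and Adcy5 (0.18) for Rasd2, and Ptk2b (0.33) and Kcng1 (0.38) for Tac1. Gpr6 and Sp9 had the same nearest pair, Icam5 and Egr3, at 0.52 and 0.56 from Gpr6 and 0.59 and 0.56 from Sp9. For Bcl11b the nearest were Drd2, the dopamine D2 receptor gene, and Ptk2b, both at 0.28. For Foxp1 they were Dgkb (0.12) and Wipf3 (0.13), and for Foxp2 Elfn2 (0.15) and Sorcs2 (0.15). The nearest profile to Ebf1 was that of Calb1 (0.20), the calbindin gene, followed by Mkrn3 (0.22). The likeness covers the difference between regions as well as the spread within groups.

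The comparison of lines within the St asks whether MSN genes differed between mice of the selected and the control line. None of the 9 genes passed the threshold, beside 2.66% of all genes tested (405 of 15213, limma), and none had an unadjusted p under 0.05, beside 14.1% of all. For none of the 9 were the StHi and StCo samples separate, beside 13.1% of all genes in either direction. In 7 of the 9 genes StCo replicates 0 and 3 were the 2 highest of their group, the exceptions being Tac1 and Sp9, and in 9 of 9 StHi replicate 0 was the lowest. Over all genes tested 24.1% had the first order and 37.5% the second.

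The log2 fold change of Hi against Co in the St was 0.08 for Ppp1r1b (95% interval -0.13 to 0.28, adjusted p = 0.821), -0.03 for Foxp1 (-0.30 to 0.24, adjusted p = 0.959) and -0.02 for Foxp2 (-0.32 to 0.29, adjusted p = 0.984). It was 0.20 for Rasd2 (-0.15 to 0.55, adjusted p = 0.681) and 0.03 for Ebf1 (-0.39 to 0.46, adjusted p = 0.975). In this fit these 5 intervals exclude a change of 0.6 in either direction. For Bcl11b the value was -0.17 (-0.75 to 0.41, adjusted p = 0.869). The intervals of Tac1 (-0.18, from -1.36 to 0.997, adjusted p = 0.940), Gpr6 (0.23, from -0.98 to 1.43, adjusted p = 0.926) and Sp9 (0.18, from -1.16 to 1.52, adjusted p = 0.953) were the widest. The fit takes the spread of each gene over all 4 groups, so these widths include the spread of the low Ce samples. In a fit of the St samples alone the intervals were -0.45 to 0.081 for Tac1, -0.13 to 0.58 for Gpr6, -0.13 to 0.48 for Sp9 and -0.38 to 0.046 for Bcl11b. Those of Rasd2 and Foxp2 also narrowed. The interval of Ebf1 widened to -0.55 to 0.62, which no longer excludes a change of 0.6. Those of Ppp1r1b (-0.18 to 0.33) and Foxp1 (-0.38 to 0.32) widened as well. All 9 still included 0 in that fit. Without CeHi replicate 3, with the other Ce samples kept, the intervals were -0.77 to 0.42 for Tac1 and -0.35 to 0.032 for Bcl11b (unadjusted p = 0.096, adjusted p = 0.446, limma).

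Other measures moved between the same samples. StHi replicate 0, the lowest of its group for all 9 genes, had the fewest fragments of the series (32909395). The summed level of 7 markers of cortical projection neurons was 34835 to 51811 normalized counts in StCo and 39650, 18329 and 29479 in StHi replicates 0, 1 and 2. Most of this sum was Slc17a7, with means of 33757 in StCo and 22345 in StHi. All 7 had a negative log2 fold change between lines in the St (median -0.65). Of them 5 had an unadjusted p under 0.05, beside 14.1% of all genes tested, and 0 had an adjusted p that passed. The part of depth and of cortical tissue in the values of the 9 genes was not tested.

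**Figure D3:**
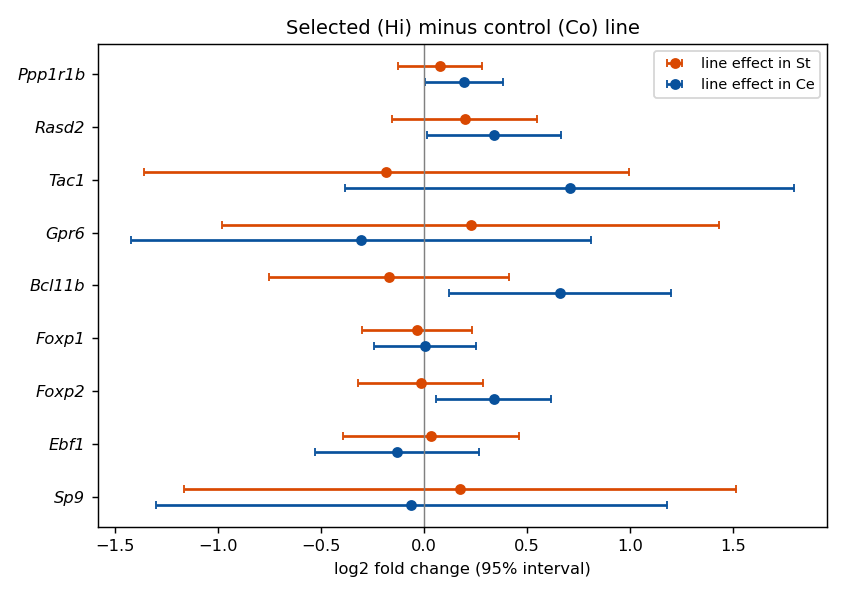
Log2 fold change of Hi against Co with its 95% interval, in St and in Ce, for the 9 genes. In the St all 9 intervals include 0, and in the Ce those of Ppp1r1b, Rasd2, Bcl11b and Foxp2 lie just above 0 before adjustment.

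In the Ce, none of the 9 genes passed the threshold between lines either, beside 5.94% of all genes tested. Before adjustment 4 of the 9 had a p under 0.05, all higher in Hi, beside 9.79% of all genes that were higher at that level. They were Bcl11b (log2 fold change 0.66, 95% interval 0.12 to 1.20, unadjusted p = 0.0197, adjusted p = 0.153, limma), Foxp2 (0.34, 0.06 to 0.62, unadjusted p = 0.0203, adjusted p = 0.156), Rasd2 (0.34, 0.02 to 0.67, unadjusted p = 0.0411, adjusted p = 0.230) and Ppp1r1b (0.19, 0.00 to 0.38, unadjusted p = 0.0453, adjusted p = 0.242). For Bcl11b and Foxp2 all 4 CeHi samples were above all 4 CeCo samples, which held for 6.88% of all genes. The other 5 genes had log2 fold changes of 0.71 (Tac1), -0.30 (Gpr6), -0.13 (Ebf1), -0.06 (Sp9) and 0.01 (Foxp1), with adjusted p between 0.484 and 0.983.

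These values rest in part on CeHi replicate 3. It was the highest Ce sample for Rasd2, Tac1, Gpr6, Bcl11b, Foxp2 and Sp9, but not for Ppp1r1b, Foxp1 or Ebf1. As a share of the St mean, Bcl11b stood at 1.75% in that sample and at 0.516% to 0.713% in the other 7 Ce samples, Tac1 at 2.12% against 0.199% to 0.630%, and Foxp2 at 19.0% against 9.57% to 12.3%. Over the 26 other genes of the MSN lists the median share was 3.96% in CeHi replicate 3 and 1.58% to 2.06% in the other Ce samples. Six3, a transcription factor of indirect pathway MSN, had 179 normalized counts there and at most 3.73 in any CeCo sample. Its part in the differences between lines can be read from the fit without it, in which 1 of the 9 genes, Bcl11b, kept an unadjusted p under 0.05. Its log2 fold change was then 0.32 (unadjusted p = 0.00301, adjusted p = 0.0595, limma). Without it the log2 fold change of Tac1 fell from 0.71 to 0.12, that of Foxp2 from 0.34 to 0.18 and that of Rasd2 from 0.34 to 0.23, while that of Ppp1r1b was 0.20.

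**Figure D4:**
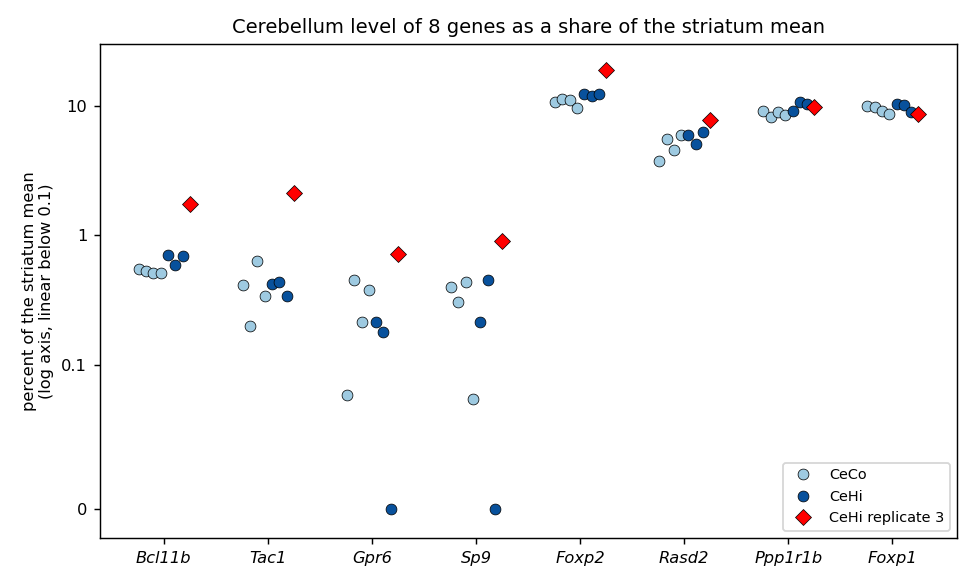
Level of 8 genes in each Ce sample as a percent of the mean of the St samples, on an axis that is logarithmic above 0.1 and linear below it. CeHi replicate 3 (diamond) stands above the other Ce samples for Bcl11b (1.75%), Tac1 (2.12%), Gpr6 (0.716%), Sp9 (0.905%), Foxp2 (19.0%) and Rasd2 (7.83%), within their range for Ppp1r1b (9.86%) and below it for Foxp1 (8.63%).

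The interaction asks whether the difference between lines differed between St and Ce. None of the 9 genes passed, beside 0.532% of all genes tested. Before adjustment 1 gene had a p under 0.05, beside 9.56% of all. It was Bcl11b, whose difference of Hi against Co was lower in the St than in the Ce by a log2 value of -0.83 (SE 0.37, unadjusted p = 0.0411, adjusted p = 0.488, limma), and this was -0.48 without CeHi replicate 3 (unadjusted p = 0.00188, adjusted p = 0.144, limma). The interaction of Tac1 was -0.89, and -0.29 without that sample, and neither passed.

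The 2 classes of MSN were compared through their lists, without a test, because the lists were drawn up with earlier results known. Between lines in the St 2.66% of all genes tested passed the threshold. None of 7 direct pathway genes (Drd1a, Tac1, Pdyn, Chrm4, Isl1, Ebf1 and Slc35d3) did so. Likewise none of 7 indirect pathway genes passed (Drd2, Adora2a, Penk, Gpr6, Gpr52, Sp9 and Six3). The sign of the log2 fold change was positive for 7 of 7 indirect genes (median 0.19) and for 1 of 7 direct genes (median -0.15), beside a median of 0.00 over all genes tested. The gene nearest to the threshold was Adora2a, the adenosine receptor gene of this class (log2 fold change 0.30, SE 0.13, unadjusted p = 0.0331, adjusted p = 0.292, limma). The mean log2 level of the indirect genes minus that of the direct genes was 0.955, 0.927, 0.878 and 1.004 in the 4 StCo samples and 1.22, 1.28 and 1.32 in the 3 StHi samples. The samples of the lines did not overlap, with means of 0.941 ± 0.053 (SD, n = 4) and 1.27 ± 0.052 (SD, n = 3). Of all single genes tested, 13.1% also separated these samples, in either direction. No such share was obtained for differences between lists, so the lack of overlap alone does not show a shift between the classes. With Tac1, Ebf1, Gpr6 and Sp9 left out of the lists the balance was 1.46 ± 0.19 in StCo and 1.81 ± 0.065 in StHi, again without overlap. Cortical markers, which also differed between these samples, are given above, and their part in this balance was not tested.

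**Figure D5:**
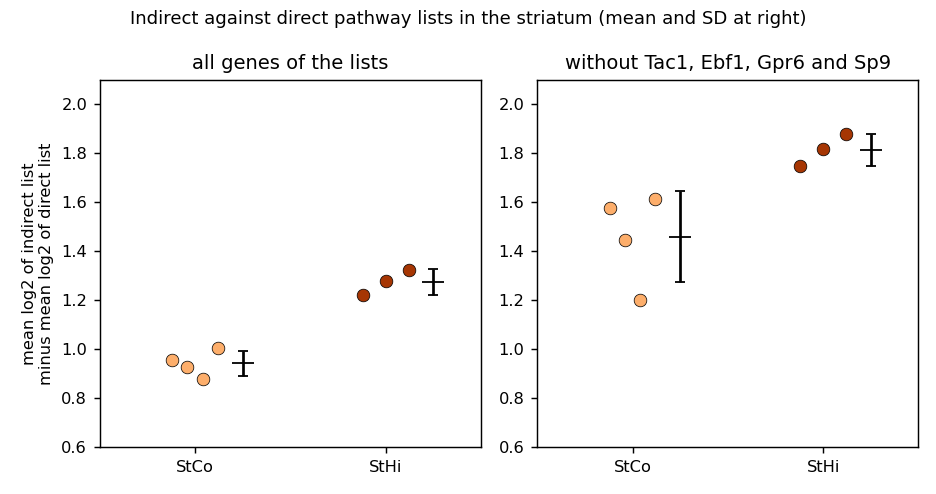
Mean log2 level of 7 indirect pathway genes minus that of 7 direct pathway genes in each St sample, with mean and SD beside the points, for the full lists and without the 4 genes described here. StHi samples (1.22 to 1.32 with the full lists) lie above StCo samples (0.878 to 1.004) in both panels.

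Of the other MSN lists, none of 12 signalling genes and none of 13 transcription factors passed between lines in the St, with medians of 0.09 and 0.03. Of all genes tested 2.66% passed there. In the Ce 1 of the 12 signalling genes passed, beside 5.94% of all genes tested. It was Itpka, an inositol phosphate kinase gene, which was higher in Hi (log2 fold change 0.25, SE 0.064, adjusted p = 0.0298, limma). Dlx5, a homeobox factor of MSN precursors, passed as well (adjusted p = 0.00102), but it had no fragment in any CeCo sample and a mean of 1.65 normalized counts in CeHi, so both groups were at the detection floor and no fold is given. Among 11 paralogs 1 passed in the St and 1 in the Ce, beside the same shares of all genes. Ebf2 was higher in StHi than in StCo (47.4 ± 26.5 normalized counts, SD, n = 3, in StHi and 14.9 ± 3.46, n = 4, in StCo, log2 fold change 1.45, SE 0.30, adjusted p = 0.0119, limma). Gpr3, a close relative of Gpr6, was higher in CeHi than in CeCo (284 ± 57.2 in CeCo and 455 ± 44.9 in CeHi, log2 fold change 0.69, SE 0.13, adjusted p = 0.0041, limma).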

How the data were processed

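What was deposited is an expression signal per gene. The authors aligned paired-end reads to GRCm38 with TopHat2 and scaled the counts for library size with Cuffnorm 2.2.1. Despite the name of the table, values were not divided by gene length: 99.6% to 99.8% of the low values of a sample were whole multiples (within 0.1 fragment) of a common step. Samples were grouped from their labels, and each comes from 1 mouse. Whether both regions of a mouse were used is not given in the sources used here.

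Genes with a CPM of at least 1 in 3 or more samples (15213 of 26628) were tested. Values were scaled by trimmed mean of M-values factors (0.993 to 1.01) and log2-transformed after adding 1. All 15 samples entered a model of 4 group means in limma 3.58.1 in R 4.3.3 (trended, robust moderation), with Benjamini-Hochberg adjustment over all genes tested and a threshold of 0.05. The script was tested on simulated data. Depth limits genes of a few fragments, and 3 fragments were taken as the detection floor. Alternatives covered the added constant, filter, scaling, sample weights, replicate block, separate regions and each sample left out.

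The 9 genes, the lists and the paralogs were chosen with earlier results of these data known. Named besides them are list genes that passed between lines, defining markers, and the 2 nearest profiles of each gene. Genes were placed with the GENCODE M21 annotation. Same-numbered CeCo and StCo samples deviated together (residual correlation 0.171 to 0.278 in 4 pairs), beside -0.163 to 0.0152 in pairs of unlike number. Same-numbered CeHi and StHi samples did not (-0.0751 to 0.0513 in 3 pairs). What the same-numbered Co samples share, a mouse or something else, was not tested. The test statistics were fitted without a block, and the blocked values are given with the alternatives.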

Additional observations from a re-analysis of the deposited data

Results flagged for a closer look

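In 3 of the 27 groups of 4 samples examined, 1 sample was farther from the rest than Dixon's 95% limit allows, and chance alone marks about 1 in 20 groups. All 3 cases were CeHi replicate 3. For Tac1 it had 189 normalized counts and the next sample 39.0 (gap over range 0.947). For Foxp2 it had 594 and the next 385 (gap over range 0.938). For Bcl11b it had 208 and the next 84.9 (gap over range 0.896). Values without this sample are given above for the results that it moves most.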

How the results depend on the processing

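The number of the 9 genes that passed was 9 for each region comparison and 0 for each line comparison and for the interaction under every alternative run. Of 504 values of the 9 genes under alternatives other than leaving out a sample, 499 kept their direction and side of the threshold and 5 turned sign. These were Sp9 in the Ce (0.069 with 5 added before the logarithm), Foxp1 and Foxp2 in the St with sample quality weights (0.021 and 0.057), and Tac1 and Foxp2 in the St with a replicate block over all groups (0.027 and 0.032). With the weights 740 genes passed between lines in the St and 182 in the interaction, beside 405 and 81 as reported, and the cause was not tested. The replicate block within line changed no call of the 9 genes and left 54 genes in the interaction.

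Of 810 values with a sample left out, 783 kept their direction and 27 turned sign, and 0 crossed the threshold. Leaving out each sample in turn gave 269 to 468 genes between lines in the St (269 without StCo replicate 1 or StHi replicate 2, 270 without StHi replicate 1) and 46 to 117 in the interaction (46 without StHi replicate 1). The turned values between lines in the St ranged from -0.13 to 0.071 for Foxp1, -0.089 to 0.11 for Foxp2 and -0.17 to 0.26 for Ebf1. In the Ce they ranged from -0.82 to 0.26 for Gpr6, -0.028 to 0.052 for Foxp1 and -0.57 to 0.61 for Sp9. In the interaction they ranged from -0.023 to 1.06 for Gpr6, -0.13 to 0.065 for Foxp1, -0.040 to 0.39 for Ebf1 and -0.43 to 0.75 for Sp9. Count tests on fragments recovered from the values were planned and not run, because a few values in 5 samples were no whole number of fragments. Depth limits Gpr6 and Sp9 in the Ce, at 0 to 10 fragments per sample.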

Other observations

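The St also holds interneurons. Of their list 8 of 10 genes were higher in the St than in the Ce, beside 39.6% of all genes tested. Among them were Chat (log2 fold change 7.99, SE 0.28), which makes acetylcholine, and Lhx6 (7.14, SE 0.14), a factor of GABAergic interneurons. Pvalb, the parvalbumin gene (-4.47, SE 0.14), and Nos1, a nitric oxide synthase gene (-0.57, SE 0.075), were lower. Between lines 1 of the 10 passed in the Ce and none in the St, beside 5.94% and 2.66% of all genes tested. It was Npy, the neuropeptide Y gene, with 138 to 192 normalized counts in CeCo and 297 to 569 in CeHi (log2 fold change 1.25, SE 0.16, adjusted p = 0.000168, limma). Npy also passed in the interaction (-1.35, SE 0.24, adjusted p = 0.0172). The paper describes Npy, Six3 and Dlx5 as under-expressed in the Ce of Hi mice. For Npy the direction was the opposite here, with every CeHi sample above every CeCo sample. The paper tabulates Npy under headings of Co against Hi, with a positive value for Ce and a slightly negative one for St. Here Hi against Co gave 1.25 for Ce and -0.10 for St, close to those tabulated values in sign and size. For Npy the numbers therefore match, and the stated order of the lines is reversed. For Six3 and Dlx5 the values here give no clear direction. The Six3 mean in CeHi (46.9 ± 87.8 normalized counts, SD) rested on CeHi replicate 3, and Dlx5 was at the detection floor in both Ce groups. Why the order of the lines is reversed for Npy was not tested. The lines here were assigned from the sample labels, so the question bears on every direction between lines given here. All 3 genes of the olfactory tubercle list were higher in the St, and none of them passed between lines, beside the shares of all genes given above.

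All 8 genes of the Purkinje cell list and all 8 of the granule cell list were lower in the St, beside 40.6% of all genes tested. The Purkinje cell list includes Cbln3, which is known from granule cells and is no Purkinje cell marker. Between lines, Gng13, a G protein gene of Purkinje cells, was higher in CeHi (5236 ± 325 normalized counts, SD) than in CeCo (3881 ± 293), with a log2 fold change of 0.43 (SE 0.083, adjusted p = 0.00416, limma). Cbln1, a synaptic organizer made by granule cells, was higher in StHi (538 ± 11.2) than in StCo (380 ± 70.3), with a log2 fold change of 0.51 (SE 0.12, adjusted p = 0.0262), and passed in the interaction (0.80, SE 0.16, adjusted p = 0.0358). Of 4 choroid plexus genes none passed between lines in either region, beside 2.66% of all genes tested in the St and 5.94% in the Ce.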
